A study of Homo sapiens with 10 samples.

Results

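Small nucleolar RNA (snoRNA) genes were examined in a list of nucleosome positions from human induced pluripotent stem cells (hiPSCs). Members were the genes that GENCODE release 44 classes as snoRNA on the 22 autosomes of GRCh38, which gave 893 of the 942 snoRNA genes annotated. Each gene was placed on its own strand, and the midpoints of positions within 1000 bp of its centre were counted. The undifferentiated cells belonged to line PB010.5, in which a FUCCI reporter of the cell cycle sits in the EEF2 locus, and their chromatin was cut for 5 min with micrococcal nuclease (MNase), which digests linker DNA, at doses of 10 U, 6 U, 3 U, 1 U or 0.5 U. Every dose gave 1 library, read both as 150-bp and as 50-bp read pairs, so the series holds 10 samples without a replicate of any dose. The deposited list pools libraries and carries 12921589 positions of 140 bp, each with a score. It has no column per dose, and the effect of MNase dose was not analysed here.

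snoRNAs are short stable RNAs that guide the chemical modification of ribosomal and spliceosomal RNA in the nucleolus. C/D box snoRNAs, whose symbols start with SNORD, direct ribose methylation, and H/ACA box snoRNAs, whose symbols start with SNORA, direct pseudouridylation. In human cells most are not transcribed from a promoter of their own but are cut out of introns of a host gene, often a gene for a ribosomal protein, a translation factor or a non-coding snoRNA host gene (SNHG).

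The members comprised 309 SNORD genes, 200 SNORA genes and 384 genes with other symbols, of which 309 had only an identifier, 46 were named U3 and 22 were named U8. A gene was placed in a host intron if it lay wholly between consecutive exons of a protein-coding or lncRNA transcript on the same strand, and this held for 535 genes in 288 hosts. Another 173 genes overlapped no protein-coding gene, lncRNA or pseudogene on either strand and are called outside genes, and the other 185 lay in between. Of the genes in host introns, 268 were SNORD, 141 were SNORA and 126 had other symbols. Only 16 SNORD and 26 SNORA genes lay outside genes, where 131 genes had other symbols. The host setting and the family are therefore not independent of each other.

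The sequences of 6 genes are printed to show the elements by which the families are known, read from GRCh38 on the gene strand. Capitals mark the C box TGATGA within the first 20 bases and the D box CTGA within the last 15 bases of SNORD genes, and the triplet ACA placed 3 bases before the end of SNORA genes. They are SNORD37, the gene in an EEF2 intron, and the first numbered copies of the SNORD115 and SNORD116 arrays. With them are the U8 gene SNORD118 and the H/ACA genes SNORA52 and SNORA73B.
SNORD37, chr19:3982507-3982572, minus strand: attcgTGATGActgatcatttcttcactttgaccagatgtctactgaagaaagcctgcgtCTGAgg
SNORD115-1, chr15:25170723-25170804, plus strand: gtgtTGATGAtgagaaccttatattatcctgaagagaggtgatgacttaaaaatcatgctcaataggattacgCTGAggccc
SNORD116-1, chr15:25051477-25051571, plus strand: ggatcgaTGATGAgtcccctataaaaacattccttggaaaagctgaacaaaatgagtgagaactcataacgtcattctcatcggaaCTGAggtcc
SNORD118, chr17:8173454-8173587, minus strand: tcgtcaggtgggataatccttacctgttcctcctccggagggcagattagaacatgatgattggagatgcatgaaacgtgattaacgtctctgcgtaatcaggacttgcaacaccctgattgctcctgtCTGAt
SNORA52, chr11:811681-811814, plus strand: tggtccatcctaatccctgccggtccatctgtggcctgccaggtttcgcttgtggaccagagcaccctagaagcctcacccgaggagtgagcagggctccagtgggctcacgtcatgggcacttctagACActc
SNORA73B, chr1:28508559-28508762, plus strand: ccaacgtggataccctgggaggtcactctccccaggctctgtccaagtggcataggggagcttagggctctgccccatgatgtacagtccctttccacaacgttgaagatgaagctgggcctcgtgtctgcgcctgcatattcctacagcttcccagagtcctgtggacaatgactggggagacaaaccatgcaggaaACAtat

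The C box letters were found in 202 of the 309 SNORD genes (65.4%), the D box letters in 269 (87.1%) and both in 191. Among adjoining autosomal windows of the same lengths, on the plus strand, 0.514% held TGATGA and 5.92% held CTGA. ACA stood at the searched place in 133 of the 200 SNORA genes (66.5%), and 2.02% of autosomal bases start this triplet. Each motif was sought in these exact letters on the gene strand. The exact C box letters were not in the searched window of SNORD118, SNORD34 or SNORD26, which says only that these letters are not in that window. The printed SNORD118 sequence does hold TGATGA farther in, left in lower case because only the first 20 bases were searched. SNORD genes had a median length of 81 bp and a median GC content of 42.7%, and SNORA genes of 134 bp and 48.0%.

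A typical snoRNA gene is shorter than, or about as long as, the DNA of 1 nucleosome position, and some genes lay wholly inside one. SNORD34, in an intron of the ribosomal protein gene RPL13A, had the midpoint of its nearest position 2.5 bp from its centre, with a score of 16.0. SNORD30, in an intron of the host gene SNHG1, had its nearest midpoint 4 bp from its centre, with a score of 11.1. Both positions are printed in full on the gene strand, with the gene in capitals, because they show how an intron, a snoRNA gene and a nucleosome position fit together. The lower-case bases on either side were intronic in both, since neither position reached an exon of the host transcript.
SNORD34 position, chr19:49490872-49491011, plus strand: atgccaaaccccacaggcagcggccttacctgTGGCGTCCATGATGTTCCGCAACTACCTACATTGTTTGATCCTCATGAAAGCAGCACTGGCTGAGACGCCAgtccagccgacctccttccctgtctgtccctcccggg
SNORD30 position, chr11:62853632-62853771, minus strand: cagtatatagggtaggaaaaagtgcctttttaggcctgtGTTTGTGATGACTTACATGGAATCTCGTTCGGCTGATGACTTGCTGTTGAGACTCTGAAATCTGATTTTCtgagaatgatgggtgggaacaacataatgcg

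SNORD26, in another intron of SNHG1, was of the opposite kind. Its centre lay in a gap of 410 bp between midpoints and the nearest of them was 187.5 bp away. The gene itself is shown for comparison, with its D box in capitals.
SNORD26, chr11:62855292-62855366, minus strand: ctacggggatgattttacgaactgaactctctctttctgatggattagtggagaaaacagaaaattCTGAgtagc

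The list held positions within 1000 bp of 872 of the 893 genes, at 4.74 positions per kb, against 4.50 ± 0.22 per kb (SD, n = 22) over the autosomes. The median autosomal score was 14.8, with quartiles of 9.87 and 19.7, and scores came in steps of 1.23. On the autosomes 94.4% of midpoints lay on a single 10-bp grid, so offsets are no finer than about 10 bp. The reads behind a score and its scaling are not given in the sources used here. With a single pooled list there are no replicates and no test between samples. Intervals are 95% intervals of counting error, and spread is given as the SD over those autosomes that hold at least 5 genes. Another snoRNA gene lay within 2000 bp of 265 genes, whose windows therefore overlap, and positions in several windows were counted in each. Intervals of groups with such genes can be too narrow.

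The centre of a snoRNA gene was neither clearly depleted of positions nor clearly enriched. The central 100 bp held 458 midpoints, at a density 1.09 times that of the flanks from 500 to 1000 bp (0.989 to 1.20), or 0.13 on the log2 scale (SD 0.35, n = 22 autosomes, 12 above 0). Positions covered the centre of 596 of the 893 genes, or 66.7% (63.6% to 69.8%, Wilson), where positions covered 60.3% of sequenced autosomal bases and 62.8% of the bases in the flanks of these genes. For all genes together the share of covered centres therefore lay above the autosomal background by more than its counting error, whereas the SD of the share over autosomes was 8.28 percentage points. By family it was 63.8% (58.3% to 68.9%) for SNORD, 66.0% (59.2% to 72.2%) for SNORA and 69.5% (64.8% to 73.9%) for other symbols. Of these intervals only the last lay above 60.3%. The median distance from a gene centre to the nearest midpoint was 49 bp, and the midpoints flanking a centre were a median of 215 bp apart. The nearest position scored 25.9 or more at 7.39% of genes, as did 10.8% of all autosomal positions. That share counts all 893 genes, including the 21 whose nearest position lay more than 1000 bp away.

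**Figure D1:**
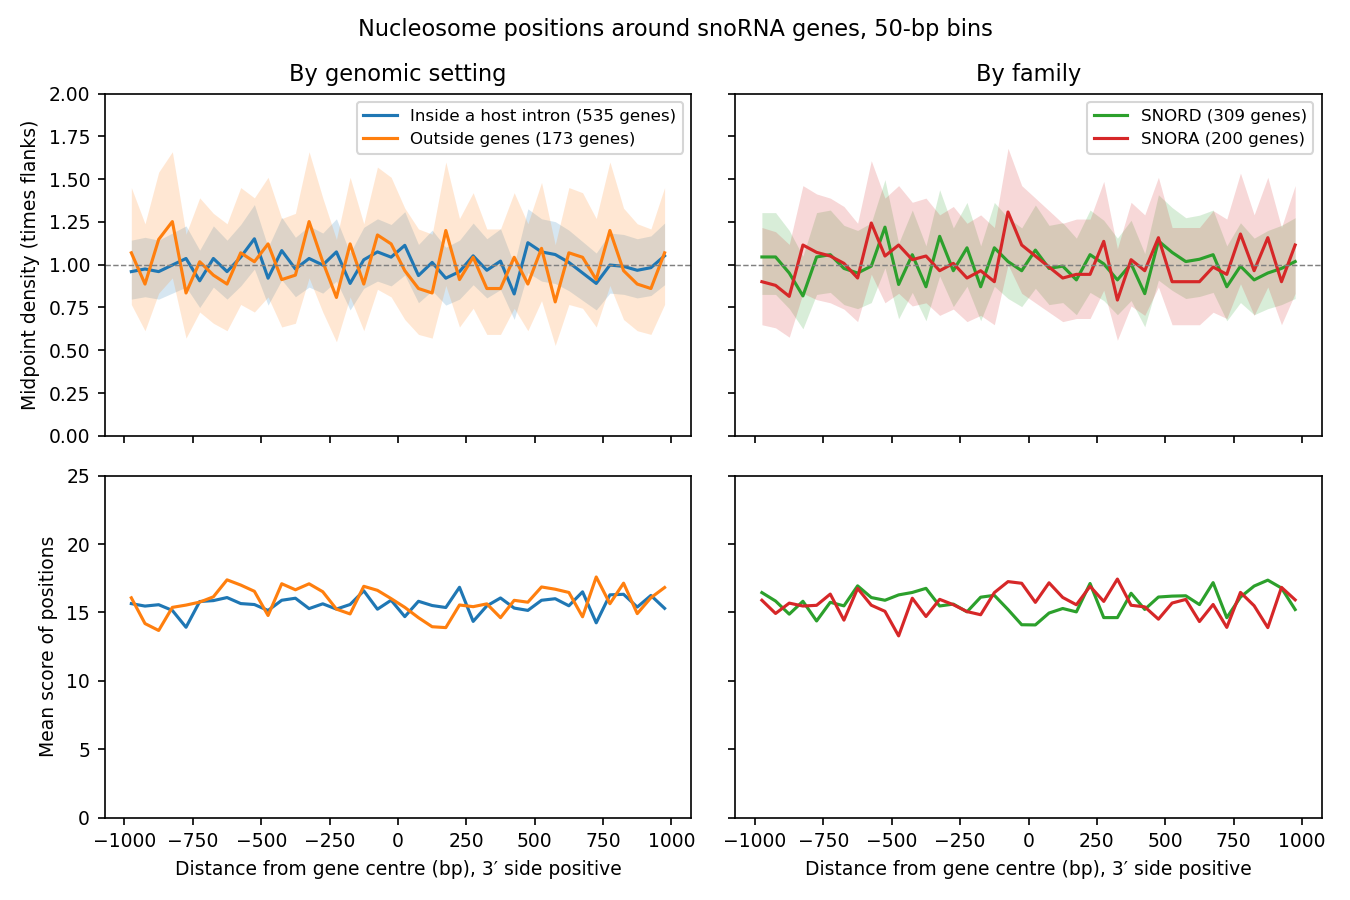
Midpoint density relative to the flanks (top; shading, 95% Poisson interval) and mean score (bottom) in 50-bp bins against distance from the gene centre, for genes inside host introns and outside genes (left) and for SNORD and SNORA genes (right). Within 500 bp of the centre, bins ranged from 0.793 to 1.31 times the flanks for SNORA genes and from 0.808 to 1.25 times for genes outside genes, and around the centre the mean scores of SNORD genes dipped below those of SNORA genes.

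Few 50-bp bins stood apart from the flanks. Within 500 bp of the centre the interval of 1 of 20 bins lay away from 1 for all genes together, at 1.16 times the flank density (1.02 to 1.31) 325 bp upstream of the centre. For genes in host introns, genes outside genes and SNORD genes, none of the 20 bins had an interval away from 1. For SNORA genes 1 of 20 did, at 1.31 times the flanks (1.00 to 1.68) 75 bp upstream.

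Genes inside a host intron and genes outside genes did not differ beyond the spread. The central density was 1.08 times the flanks (0.950 to 1.22) for the 535 genes in introns and 1.04 times (0.818 to 1.31) for the 173 outside genes. The log2 difference was 0.05 (-0.33 to 0.42), with an SD of 1.00 over 15 autosomes, 8 of which were above 0. Genes outside genes held only 80 central midpoints in all, so values per autosome rest on few positions and a modest difference could go unseen. Centres were covered in 67.3% and 65.3% of genes, a difference of 1.97 percentage points (-5.87 to 10.3). Positions lay within 1000 bp of 526 of the 535 genes in introns and 166 of the 173 outside genes. In this and the other shares, a gene without any counted as uncovered. Mean central scores were 15.3 in introns and 15.7 outside genes, and flank scores were 15.6 and 16.0. The central score minus the flank score differed between the settings by -0.06, with an SD of 5.92 over 15 autosomes.

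The positions at SNORD centres averaged lower scores than those at SNORA centres, by less than the spread over autosomes, and the interval of the difference in their density included 0. Central density was 1.02 times the flanks (0.862 to 1.21) for SNORD and 1.08 times (0.873 to 1.33) for SNORA, a log2 difference of -0.08 (-0.46 to 0.30; SD 0.64 over 13 autosomes). The mean score of central positions was 14.1 for SNORD, against 16.0 in their flanks, and 16.5 for SNORA, against 15.5 in theirs. The difference of these differences was -2.86, within the SD of 5.42 over 13 autosomes, and SNORD was the lower on 8 of them. GC content moved the same way, with medians of 42.7% in SNORD genes and 45.5% in their flanks, and 48.0% in SNORA genes and 43.0% in theirs.

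Set against the mean score of all autosomal positions of the same GC content, in classes of 2 percentage points, the contrast between the families shrank. Positions of the GC content found at SNORD centres averaged 15.8 over the autosomes and those at SNORA centres 17.3, and the measured score minus this mean was -1.67 for SNORD and -0.82 for SNORA. After this subtraction the score difference between centre and flank was -0.13 for SNORD and 0.34 for SNORA, which left -0.47 of the -2.86. This comparison was added after the scores had been seen. Across 872 genes the score of the nearest position and the GC content of the gene had a Spearman correlation of 0.30, with 0.19 in 301 SNORD and 0.41 in 193 SNORA genes. These genes share 1 list of positions, and the correlation is given as a description.

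**Figure D2:**
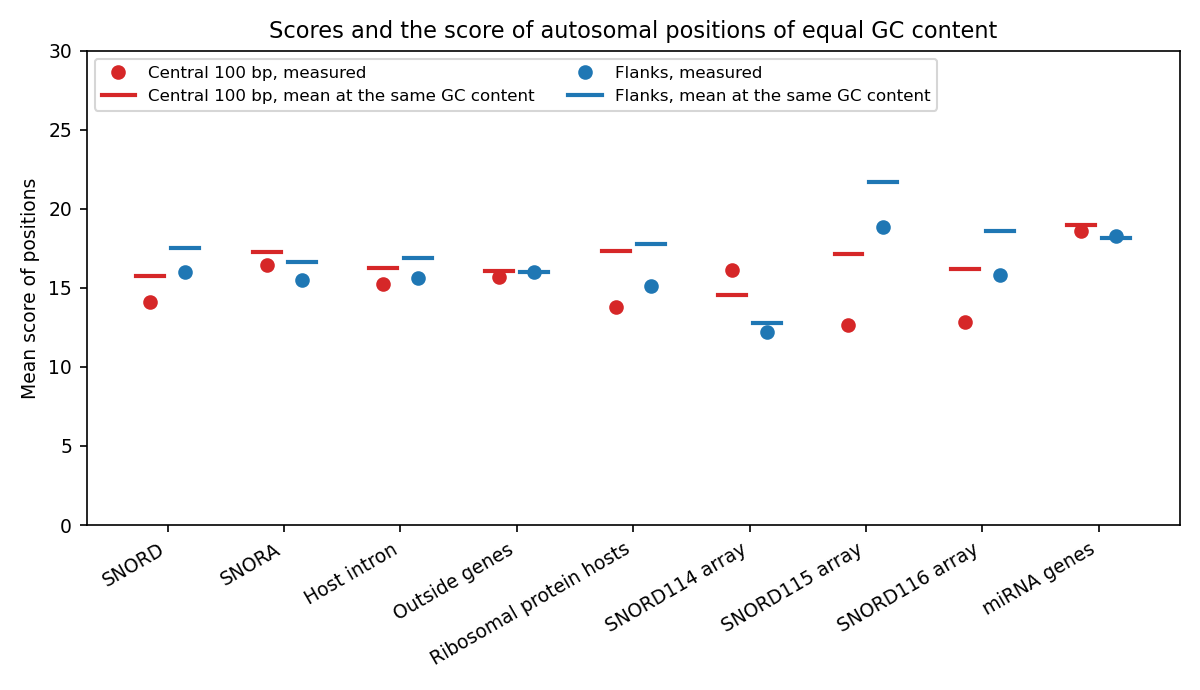
Mean score of positions in the central 100 bp (red) and in the flanks (blue) of each group, with the mean score of autosomal positions of the same GC content as bars. SNORD centres averaged 14.1 and SNORA centres 16.5, both below their bars at 15.8 and 17.3, and the SNORD115 array lay farthest below, at 12.6 against 17.1.

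Coverage of gene centres depended on the scores of the positions counted. Positions of any score covered 63.8% of SNORD and 66.0% of SNORA centres, a difference of -2.25 percentage points (-10.5 to 6.30), which was 0.31 points (-9.08 to 9.65) without the imprinted arrays and 8.25 points (-3.10 to 19.1) among genes with no other snoRNA gene within 2000 bp. Positions that scored at least the median covered 87 of 309 SNORD centres, 28.2% (23.4% to 33.4%), and 82 of 200 SNORA centres, 41.0% (34.4% to 47.9%), where they covered 32.0% of autosomal bases. That difference was -12.8 percentage points (-21.2 to -4.42), with GC content not taken into account and neighbouring genes counted as separate. It was -9.45 points (-18.8 to 0.14) without the imprinted arrays and -5.73 points (-16.7 to 5.70) among genes with no other snoRNA gene within 2000 bp, so in both restricted sets the interval included 0. These restricted values were added after the others had been seen. A whole SNORD gene fitted inside 1 position in 30.4% of cases and a whole SNORA gene in 5.50%, with median lengths of 81 and 134 bp.

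The C/D box genes with promoters of their own differed in whether they could be measured at all. SNORD118, the U8 snoRNA needed for large-subunit ribosomal RNA, had its nearest midpoint 79 bp downstream of its centre, with a score of 9.87. SNORD13, the U13 snoRNA, had a nearest midpoint 65 bp downstream with the same score of 9.87. Both scores were higher than those of 18.7% of autosomal positions. SNORD3A, the U3 snoRNA gene that acts in the first cleavages of pre-ribosomal RNA, had no position within 1000 bp. It lay in a stretch of 212080 bp without any position, chr17:19025382-19237461, which held 6 members and no unsequenced base.

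In all, 21 members had no position within 1000 bp, and no member's window held unsequenced bases. They were SNORD3A, SNORD3B-1, SNORD3B-2, SNORD3C and 2 copies of SNORD3D, SNORD95 and SNORD96A, 4 copies of SNORA70, 2 of SNORA75 and 1 of SNORA74, 4 genes named U8 and 2 with identifiers only. SNORD95 and SNORD96A lay in a stretch without positions that began at base 181172662 and ran to the end of chromosome 5, with 60000 unsequenced bases among its 365598 bp. The authors removed blacklisted regions, and whether these stretches were among them was not tested. In the list, a lack of nucleosomes and a lack of usable reads cannot be told apart.

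The 46 genes named U3 had their centre inside a position in 82.6% of cases (69.3% to 90.9%) and a central density of 1.40 times the flanks (0.923 to 2.06). The 22 genes named U8 had 50.0% of centres covered (30.7% to 69.3%), at 1.32 times the flanks (0.607 to 2.55). Of these 22 genes, 4 had no position within 1000 bp and count as uncovered. Positions covered 62.5% of flank bases at U3 genes and 48.4% at U8 genes. Mean central scores were 15.0 for U3, from 30 positions, and 10.2 for U8, from only 10, against 15.5 and 16.7 in the flanks.

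SNHG1, a non-coding host gene that carries C/D box genes in successive introns, held 7 members in introns of 162 to 454 bp. SNORD30 and SNORD28 had their centres covered, with nearest scores of 11.1 and 7.40 at 4 and 46.5 bp. SNORD25 also had its nearest midpoint at 46.5 bp, with a score of 8.64. The copies of SNORD22 had nearest midpoints 39 and 68.5 bp upstream, with scores of 17.3 and 18.5. SNORD27, at 94 bp, and SNORD26, at 187.5 bp, shared a single nearest position with a score of 13.6. Positions thus covered 5 of the 7 centres, where they covered 66.7% of all snoRNA gene centres. Along this one transcript the same kind of gene lay both under and between positions.

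RPL13A, which encodes a protein of the large ribosomal subunit, held 4 members. SNORD34 and SNORD35A lay wholly inside a position, both with a score of 16.0. SNORD33 had a nearest midpoint 75.5 bp upstream with a score of 24.7, and SNORD32A one 105 bp upstream with a score of 9.87, in a gap of 420 bp. SNORD37 in EEF2, the gene of the elongation factor that carries the reporter cassette in this line, lay between midpoints 160 bp apart, the nearer of them 78 bp downstream with a score of 17.3. The annotated genome used here is without the cassette, and its effect on this window was not tested.

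Among the H/ACA genes, SNORA73A and SNORA73B, which act in the processing of 18S ribosomal RNA and lie in introns of SNHG3, had nearest midpoints 17 bp upstream and 1 bp downstream of their centres, with scores of 19.7 and 16.0. SNORA74A in SNHG4 had one 18 bp upstream with a score of 21.0. SNORA52 in RPLP2 had one 26 bp upstream with a score of 23.4, and SNORA21 in RPL23 one 23 bp upstream with a score of 16.0. These genes were all covered at their centres. SNORA7A in RPL32, at 89.5 bp, and SNORA62 in RPSA, at 118.5 bp, were not, and both had a nearest score of 9.87. EIF4A2, which encodes a translation initiation factor, held 5 members, and the 3 of them on the fixed list had nearest midpoints 64 to 69 bp upstream, with scores of 8.64 for SNORA81, 19.7 for SNORA63 and 12.3 for SNORA4. Of the 29 genes named from fixed lists, 17 had a covered centre, where positions covered 66.7% of all snoRNA gene centres and 60.3% of autosomal bases. The C/D box genes of GAS5, and SNORD29 and SNORD31 of SNHG1, were not analysed here.

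**Figure D3:**
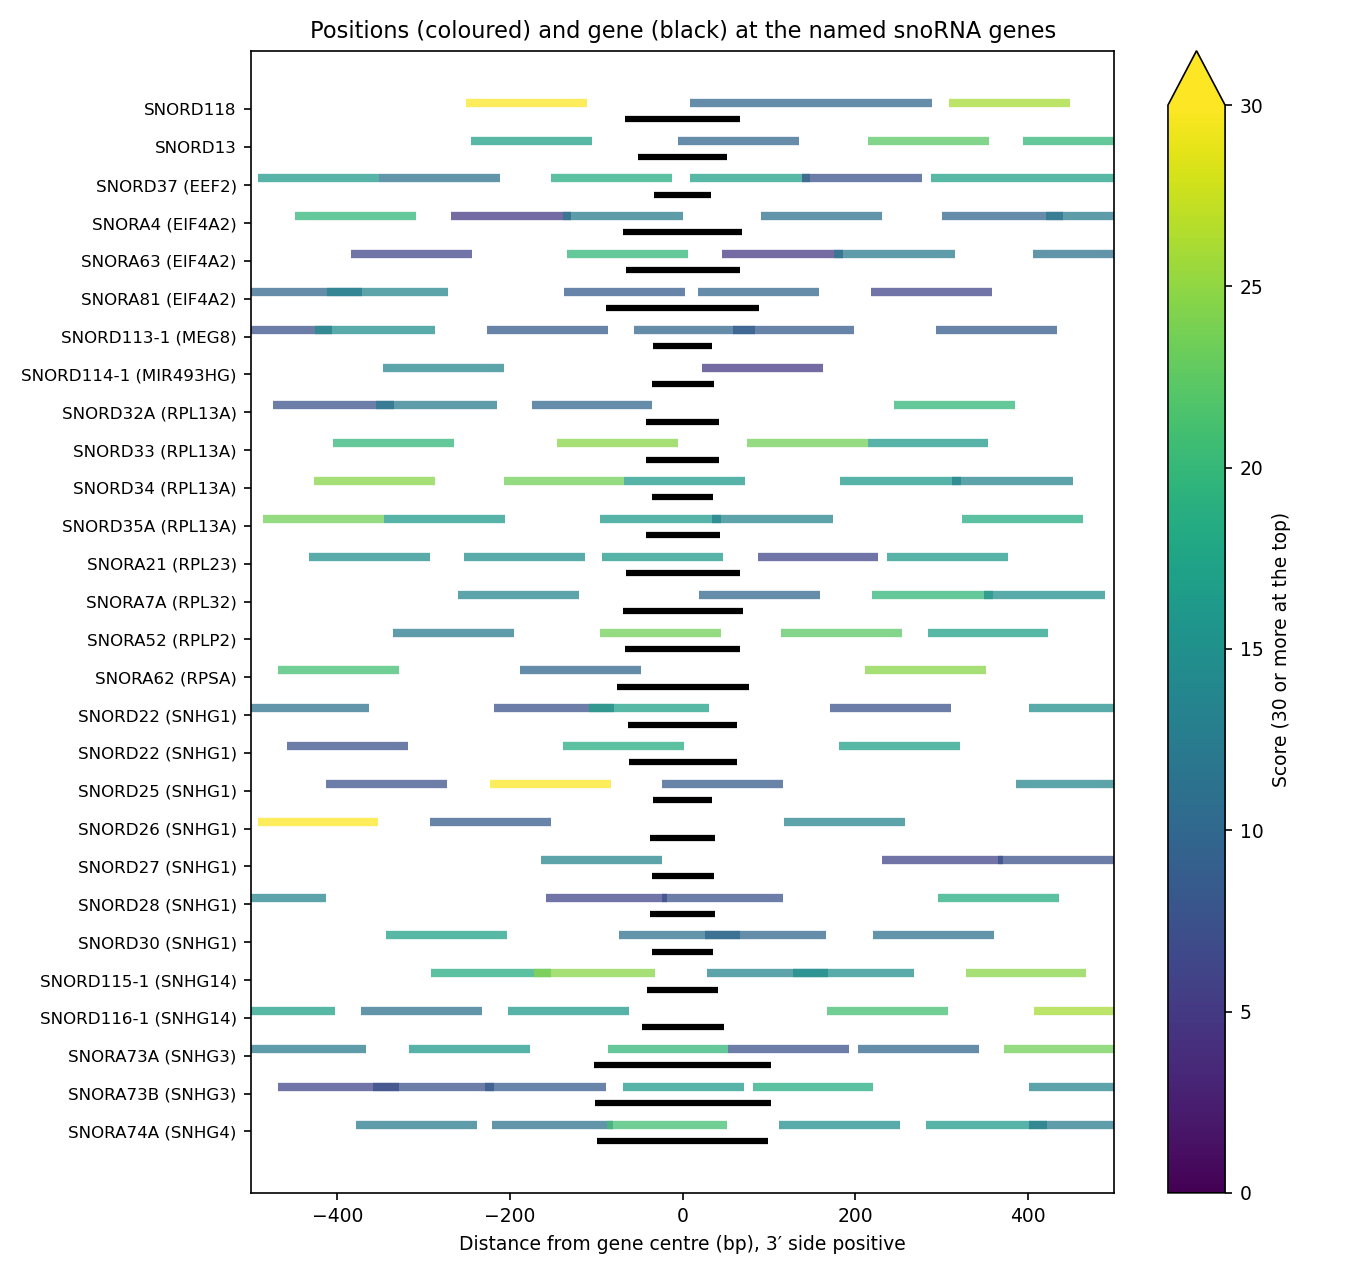
Positions of 140 bp (coloured by score) and the gene (black) within 500 bp of the centre of 28 named snoRNA genes, with the host in brackets, against distance from the gene centre in bp. SNORD34 and SNORD30 lay inside a position, and SNORD26 and SNORD32A lay in gaps of 410 and 420 bp between midpoints.

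The extremes were spread over families and settings. The highest nearest scores among SNORD and SNORA genes were 51.8 at SNORA10B outside genes, 44.4 at SNORA57 in CSKMT and 39.5 at SNORD115-5. The lowest was 4.94, which 5 genes shared, SNORD114-1, SNORD116-4 and the SNORD29 entry on chromosome 5 among them. Among SNORD and SNORA genes the longest distances to a midpoint belonged to 2 copies of SNORA70 on chromosome 9, at 623056 and 601368 bp, and to a SNORD3D gene at 87216.5 bp, all with empty windows. Where the window held positions, SNORA22 (669 bp), SNORA15B-2 (522.5 bp) and SNORA74C-2 (442.5 bp) were farthest from one.

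Host groups were compared by what the host encodes. Central density was 1.03 times the flanks (0.681 to 1.50) at 58 genes in ribosomal protein hosts, 1.16 times (0.969 to 1.38) at 249 genes in other protein-coding hosts, 0.801 times (0.596 to 1.06) at 130 genes in SNHG hosts, 81 of them in SNHG14, and 1.32 times (0.977 to 1.75) at 98 genes in other lncRNA hosts. Every one of these intervals included 1. Of the 98 genes in other lncRNA hosts, 35 lay in MEG8 and 11 in MIR493HG, the hosts of SNORD113-1 and SNORD114-1. This group was not computed without the imprinted arrays. Without the imprinted arrays the SNHG hosts stood at 0.992 times (0.630 to 1.50) in 53 genes. Other protein-coding hosts had 75.5% of gene centres covered (69.8% to 80.4%) and SNHG hosts 56.2% (47.6% to 64.4%). Without the imprinted arrays the share in SNHG hosts was 60.4% (46.9% to 72.4%), an interval that overlapped that of the other protein-coding hosts. Distance from the host's start did not order the values, with 1.14 times (0.589 to 2.03) at 25 genes within 1000 bp, 0.983 times (0.744 to 1.28) at 128 genes within 1000 to 5000 bp and 1.11 times (0.954 to 1.28) at 382 genes farther in.

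Introns were also classed by length, in classes chosen after values had been seen, and the interval of the longest class alone lay above 1. Genes in introns of over 5000 bp had a central density of 1.36 times the flanks (1.08 to 1.69, 143 genes), or 0.44 on the log2 scale (SD 0.27), above 0 on each of the 14 autosomes with at least 5 such genes. Their centres were covered in 75.5% of cases (67.9% to 81.8%). In introns of 500 to 5000 bp the density was 1.02 times (0.845 to 1.23, 255 genes), and in introns of up to 500 bp 0.904 times (0.685 to 1.17, 137 genes), so the intervals of the 3 classes overlapped. By family the value in the long introns was 1.17 times (0.619 to 2.03) for 23 SNORD genes, 1.47 times (0.917 to 2.27) for 38 SNORA genes and 1.37 times (1.01 to 1.82) for 82 genes with other symbols, which made up most of this class. SNORD genes outside the imprinted arrays lay near the end of short introns, with a median of 128.5 bp to the downstream exon in introns of 562.5 bp (150 genes, 62 of them within 100 bp), where SNORA genes had medians of 587 and 1455 bp (141 genes, 29 within 100 bp).

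**Figure D4:**
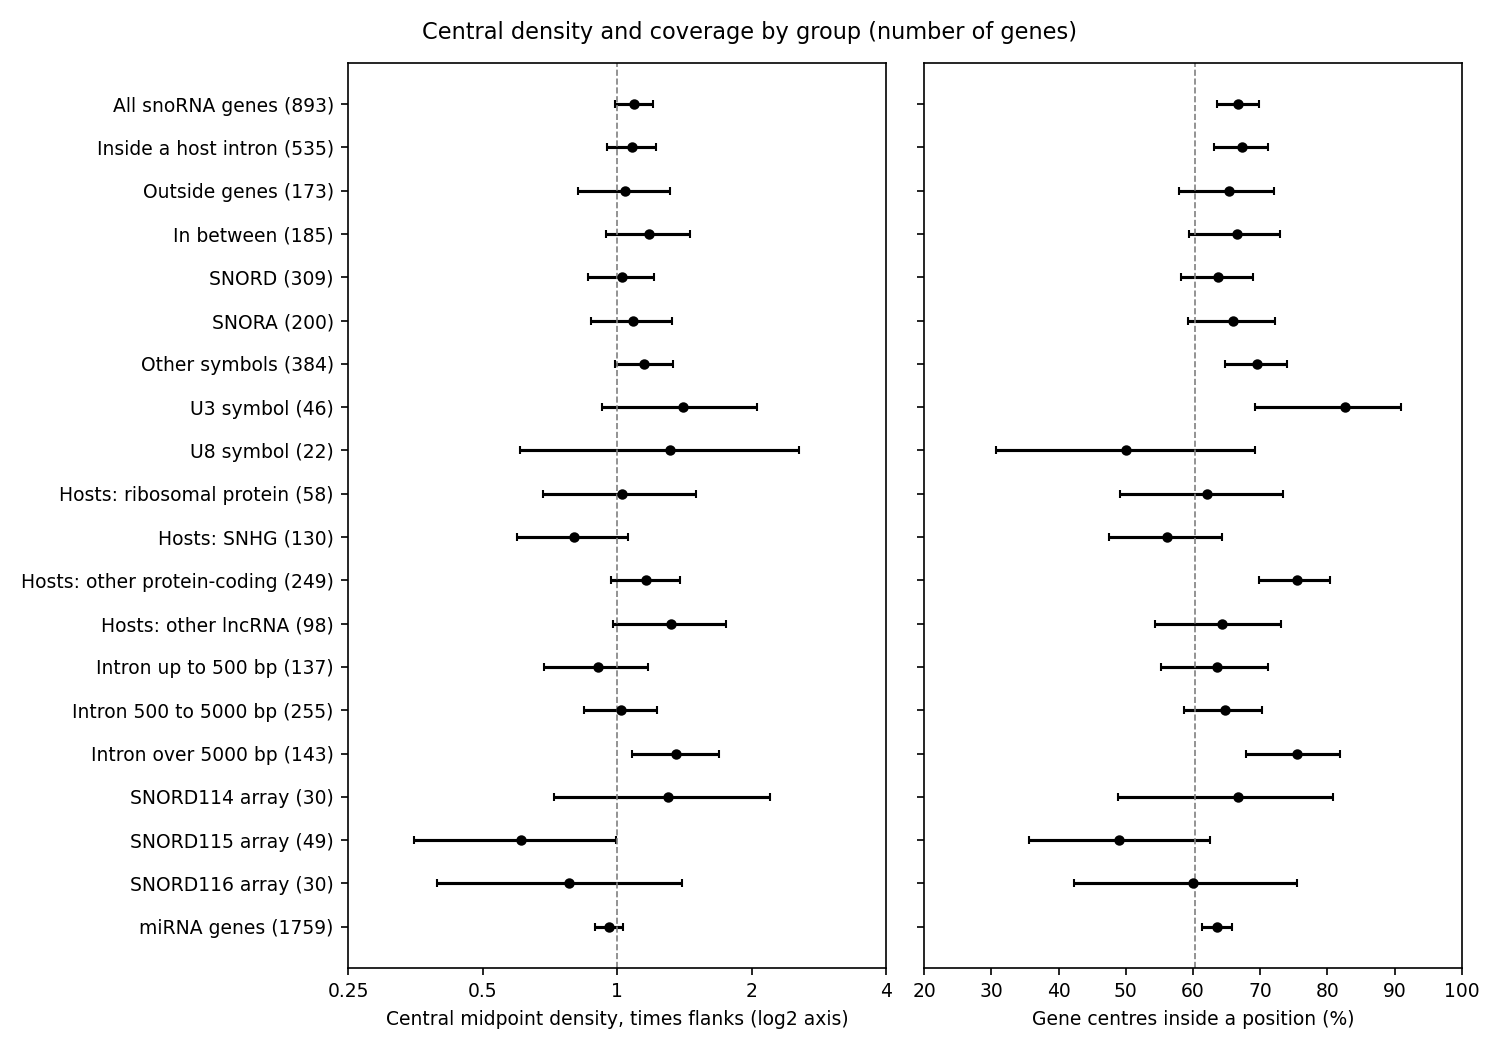
Central midpoint density relative to the flanks (left, log2 axis) and share of gene centres inside a position (right) for each group, with the number of genes in brackets and bars for 95% intervals of counting error. The dashed lines mark equal density and the 60.3% of autosomal bases covered, and genes in introns of over 5000 bp lay to the right of both and the SNORD115 array to the left of the density line.

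The imprinted arrays are long rows of related C/D box genes, transcribed from 1 parental allele, with no known target in ribosomal RNA. SNORD113 and SNORD114 lie in the DLK1 region of chromosome 14, and SNORD115 and SNORD116 within SNHG14 on chromosome 15, where loss of the paternal SNORD116 copies is known from Prader-Willi syndrome. The 49 SNORD115 genes on chromosome 15 spanned chr15:25159221-25269858 with a median repeat of 1876.5 bp, and the span held 600 positions (5.42 per kb) with a median score of 16.0 and a GC content of 53.5%. The 30 SNORD116 genes spanned chr15:25051477-25108352 with 299 positions (5.26 per kb) and a median score of 14.8. The 30 SNORD114 genes spanned chr14:100949833-100993310 with 182 positions (4.19 per kb), a median score of 12.3 and a GC content of 34.1%. The 9 SNORD113 genes spanned chr14:100924824-100945720 with 97 positions (4.64 per kb) and a median score of 11.1.

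SNORD115 centres stood lower than their surroundings in both measures. Their central density was 0.609 times the flanks (0.350 to 0.993), and 24 of 49 centres were covered, or 49.0% (35.6% to 62.5%). Their 17 central positions had a mean score of 12.6, against 18.9 in the flanks. The median GC content was 42.0% in the genes and 59.7% in their flanks, and the scores minus the autosomal mean at the same GC content were -4.50 at the centres and -2.83 in the flanks. The density of SNORD116 centres was 0.779 times the flanks (0.394 to 1.40), with 18 of 30 covered. That of SNORD114 centres was 1.30 times (0.721 to 2.20), with 20 of 30 covered. Positions covered 74.6% of flank bases at SNORD115, 69.3% at SNORD116 and 55.8% at SNORD114. At SNORD114 the mean scores ran the other way, with 16.1 at the centre and 12.2 in the flanks. That central mean rests on 16 positions, among them scores of 34.5 at SNORD114-5 and 33.3 at SNORD114-31. The median score of the nearest position was 12.3. Each array lies on 1 chromosome, its windows overlap those of neighbouring copies, and copies share sequence (43 distinct sequences among the 49 SNORD115 genes), so the counting intervals are too narrow and reads of one copy may have been placed on another, which was not tested.

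**Figure D5:**
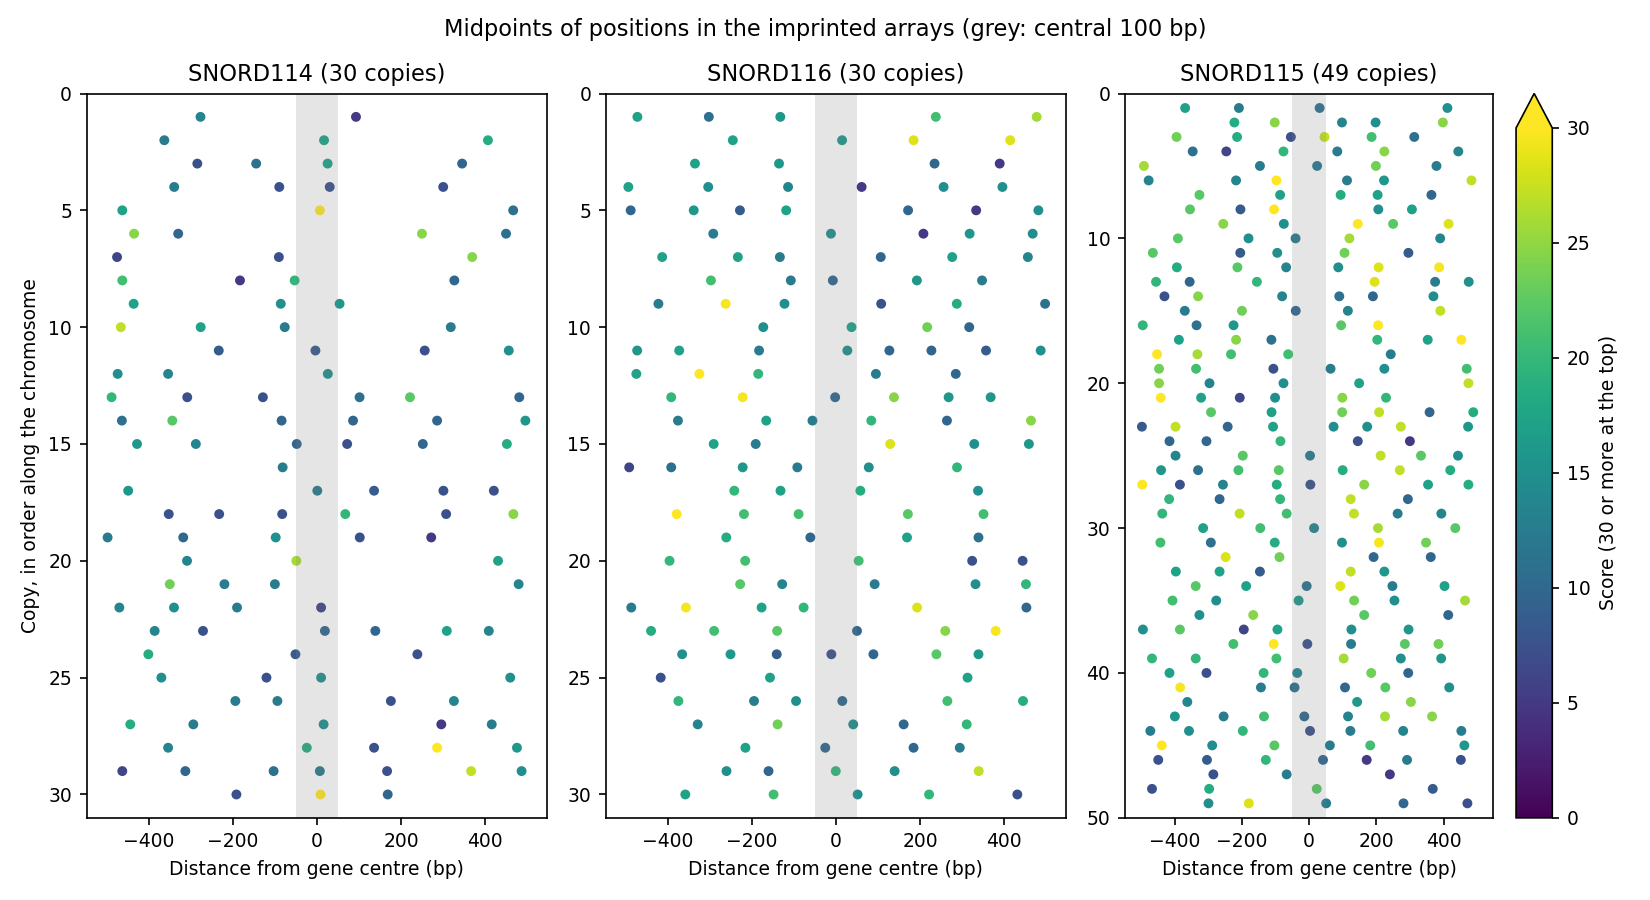
Midpoints of positions within 500 bp of each gene centre, coloured by score, for the copies of SNORD114, SNORD116 and SNORD115 in order along the chromosome, with the central 100 bp in grey. Midpoints were sparse in the grey band of SNORD115, at 0.609 times the flank density, and present there in many SNORD114 copies.

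Genes with another snoRNA gene within 2000 bp (265 genes) had a central density of 0.971 times the flanks (0.800 to 1.17), and those without (628 genes) 1.14 times (1.02 to 1.28). Covered centres made up 61.9% (55.9% to 67.5%) and 68.8% (65.1% to 72.3%). SNORD genes with both boxes in exact letters and those without had 61.8% and 66.9% of centres covered, and SNORA genes with and without ACA 67.7% and 62.7%, all with overlapping intervals.

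microRNA genes, another class of short non-coding genes often found in introns, served as a comparison of 1759 autosomal genes. Their central density was 0.961 times the flanks (0.894 to 1.03), and their centres were covered in 63.6% of cases (61.3% to 65.8%), both with intervals that overlapped those of snoRNA genes. Mean central scores were 18.6 at microRNA genes and 15.2 at snoRNA genes, and flank scores were 18.3 and 15.8. The nearest position, at any distance, scored 25.9 or more at 19.6% of microRNA genes and at 7.39% of snoRNA genes. Positions lay within 1000 bp of 1684 of the 1759 microRNA genes. The median GC content was 51.8% in microRNA and 43.7% in snoRNA genes, and central scores minus the autosomal mean at the same GC content were -0.40 and -0.84.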

How the data were processed

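The authors trimmed reads with Trimmomatic 0.40, aligned them to GRCh38 and, with blacklisted regions taken out, processed them with nucMACC, and they deposited 1 list of positions with a score. The score is a signal of 0 or more, and how the authors scaled it, the runs pooled and the caller are not given in the sources used here. The list was used without a filter, and the reads behind a position are unknown, so the precision of a score was not estimated. The paper reports a read depth filter in nucMACC, relaxed by its authors, and ranks a far smaller set of mononucleosomes. Which positions of the list belong to that set was not examined.

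Gene models came from GENCODE release 44, while the study names another release. The midpoint of a position is its start plus 70 bp. The host of a gene is that of the shortest intron around it. Density intervals are from exact binomial limits on central and flank counts, bins from exact Poisson limits, shares from Wilson and differences of shares from Newcombe limits, and all cover counting error only. They treat neighbouring genes as separate, although overlapping windows share positions, and can therefore be too narrow. No p-value is given, since there are no replicates. Members and lists were chosen with earlier results of these data known. Genes named were U3, U8 and U13, and fixed lists of the hosts GAS5, SNHG1, RPL13A and EEF2 and of H/ACA genes. Also named were the first numbered copies of imprinted arrays and the extremes of nearest score and distance (3 each). The farthest genes with positions in the window were added after values were seen. Scripts ran under Python 3.11.15 with pandas 2.3.3, SciPy 1.17.1, pysam 0.24.0, matplotlib 3.10.9 and NumPy 2.4.6 and were tested on simulated positions. Alternatives used other windows, scores and gene sets.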

Additional observations from a re-analysis of the deposited data

How the results depend on the processing

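Of 68 alternative values for the 9 compared results, 65 stayed within the spread over autosomes or the counting interval. Every main density and score value was itself smaller than its spread, so none of these could count as reversed. Staying within so wide a spread is a weak check, and some signs changed. The central score difference between host introns and outside genes was -0.06, and 0.81 among genes with a SNORD or SNORA symbol. Restricting the list to positions at or above the median score lowered the share of covered centres to 35.2% for all genes and the SNORD minus SNORA difference to -12.8 percentage points. Fewer positions remain under that restriction. With the same restriction that difference was -9.45 points without the imprinted arrays and -5.73 points among genes without a neighbouring snoRNA gene. With positions of any score and only genes that have no other snoRNA gene within 2000 bp, the difference was 8.25 points, of the opposite sign, and the cause was not tested. The log2 density difference ranged from -0.15 to 0.16 between host introns and outside genes, and from -0.60 (under the same restriction on scores) to 0.07 between SNORD and SNORA. The score difference between SNORD and SNORA ranged from -2.86 to -0.47, with the last after GC content was taken into account. Of the alternatives, 8 were added after seeing the data. No paired analysis was possible because each MNase dose has 1 library and the list is pooled, and for the same reason no library could be left out. The reads behind a score are unknown, so what depth limits was not estimated.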
